A study of Mus musculus with 7 samples.

Results

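The PI3K, Akt and mTOR pathway genes of splenic CD4+CD25+ cells were compared between aged and young mice. The set held 34 genes, chosen by name from a list of PI3K subunits, lipid and protein phosphatases, Akt kinases, mTOR complex subunits, mTORC1 regulators, AMPK subunits and amino acid sensors, of 47729 genes counted. The symbols of 33 matched the gene names of the deposited table, and Castor1 was matched by its Ensembl identifier because the table carries it under an older name. All 34 passed the filter on low counts. The cells were isolated with magnetic beads from spleens of WT male C57BL/6 mice, 3 aged mice of 18 months and 4 young mice of 8 weeks by the labels, all without surgery or other treatment named in the labels, and the methods of the study give a somewhat older age for young mice. Each library is a biological replicate. The cells were selected by surface CD4 and CD25 and are called Tregs here as in the study.

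PI3K is a lipid kinase that is switched on by the T cell receptor, CD28, cytokine receptors and chemokine receptors. Its lipid product brings the kinases Pdk1 and Akt to the membrane, where Akt is phosphorylated and then inactivates FOXO transcription factors and the TSC complex, so that the small GTPase Rheb can activate the kinase complex mTORC1. In Tregs the pathway is held low in the resting state, and FOXO factors keep genes of lymphoid homing and of Treg identity on. Amino acids reach mTORC1 through the Rag GTPases, low energy acts against it through LKB1 and AMPK, and its substrates control protein synthesis.

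The libraries held 10734234 to 13649310 gene counts, and the 3 aged libraries were all smaller than the 4 young ones. Mitochondrial transcripts took 5.08% to 10.7% of gene counts in aged libraries and 2.63% to 3.23% in young ones. The isolate expressed Foxp3, Cd4 and Il2ra. Foxp3 was at 447 to 622 counts scaled to a common library size (CPM) in aged and 394 to 518 in young libraries. Its reads are less certain, since 31.5% of its exon length overlaps Flicr, Ccdc22 and Gm36995. Of 7 T cell and Treg markers 5 had a log2 fold change above 0 and 2 below (median 0.29), and edgeR called 1, DESeq2 3 and limma voom 2. The edgeR call was Cd3e, which was higher in aged Tregs and was kept in 2 of the 7 fits that left out a library. Il2ra, which encodes CD25, differed by -0.61 ± 0.19 (SE) on the log2 scale (adjusted p = 0.0589) and was called by DESeq2 and limma voom. Cd4 differed by -0.30 ± 0.12 (adjusted p = 0.117), with ranges that did not overlap, and was called by DESeq2. Ikzf2, which encodes Helios, differed by 0.46 ± 0.17 (adjusted p = 0.0942), also without overlap, and Ctla4 by 0.86 ± 0.32 (adjusted p = 0.103). Transcripts of other cells were present at both ages. The summed level of 7 B cell markers was 857 to 1593 CPM in aged and 1293 to 1955 in young libraries, with 0 of 7 called by edgeR, 3 by DESeq2 and 1 by limma voom, and 3 at an unadjusted p under 0.05 in edgeR. The sum of 8 neutrophil markers was 654 to 5244 CPM against 304 to 977, highest in aged replicate 1, with 2 called higher by edgeR, 3 called by DESeq2 and 1 by limma voom, and 6 at an unadjusted p under 0.05 in edgeR. The edgeR calls were S100a9, kept in 4 of the 7 fits that left out a library, and S100a8, which overlapped between ages and was kept in 2, and neither was called without aged replicate 1. Of 9 monocyte and macrophage markers 1 was called higher and 3 lower (388 to 547 CPM against 499 to 582), of 7 dendritic cell markers 1 higher and 2 lower (45.2 to 66.2 CPM against 58.9 to 78.1), of 6 NK and CD8 T cell markers 1 lower (97.5 to 163 CPM against 111 to 156), and of 4 tested platelet markers 1 higher (20.2 to 39.5 CPM against 8.20 to 17.3). Among these, Clec9a was kept in 1 of the 7 fits that left out a library, Klrb1c and Ppbp in 4, Zbtb46 in 6 and the others in all 7. Haemoglobin took 1.27% to 13.1% of aged and 1.24% to 10.4% of young counts, and 0 of 6 erythroid markers were called by edgeR, DESeq2 or limma voom, with 0 at an unadjusted p under 0.05 in edgeR. For comparison, edgeR called 16.7% of all 13904 genes tested, and 4540 of them had an unadjusted p under 0.05. No marker of these lists was at or under 3 counts in every library. The part of these cells in the results below was not tested unless a value is given, and in bulk RNA fewer cells of a type and less RNA per cell cannot be told apart.

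Aged Tregs had lower expression of 7 of the 34 genes and higher expression of 1 (edgeR, adjusted p under 0.05). The genes that fell were Ddit4, Deptor, Pik3r1, Eif4ebp2, Pik3cg, Pdpk1 and Rragc, and the gene that rose was Phlpp1. Thus 23.5% of the set was called, against 16.7% of the 13904 genes tested. In the lower direction the share was 20.6% against a background of 6.94%, and in the higher direction 2.94% against 9.8%. With GC content and length trends removed, the same 8 genes were called and the background in the lower direction was 10.7%. The values of aged and young libraries did not overlap for 9 of 34 genes (26.5%), which was close to the 29.9% of all genes tested. The log2 fold change was below 0 for 28 of 34 genes (25 to 31 over the alternatives), with a median of -0.15, while 48.0% of all genes tested were below 0, with a median of 0.019. The median of the set was -0.24 without aged replicate 1 and -0.099 without aged replicate 3, and lay between these values under every other alternative. With GC content and length trends removed, the median was -0.13 for the set and -0.059 for all genes, and with library size as the only scaling it was -0.21 and -0.052, so that the median of all genes changed sign and, in the former, lay nearer to that of the set. These shares and medians are descriptions, and no test was made over the set. DESeq2 and limma voom called the same 8 genes and no other of the set. The number called ranged from 3 to 9 when one library was left out. It was 3 without aged replicate 3, 4 without young replicate 1, 3 or 4, and 5 without aged replicate 2. It was 6 without young replicate 2 and 9 without aged replicate 1. The share of all genes called moved too, to 8.9% without aged replicate 3 and 9.03% to 9.58% without young replicate 1, 3 or 4. That share was 12.2% without aged replicate 2, 14.5% without young replicate 2 and 21.5% without aged replicate 1.

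**Figure D1:**
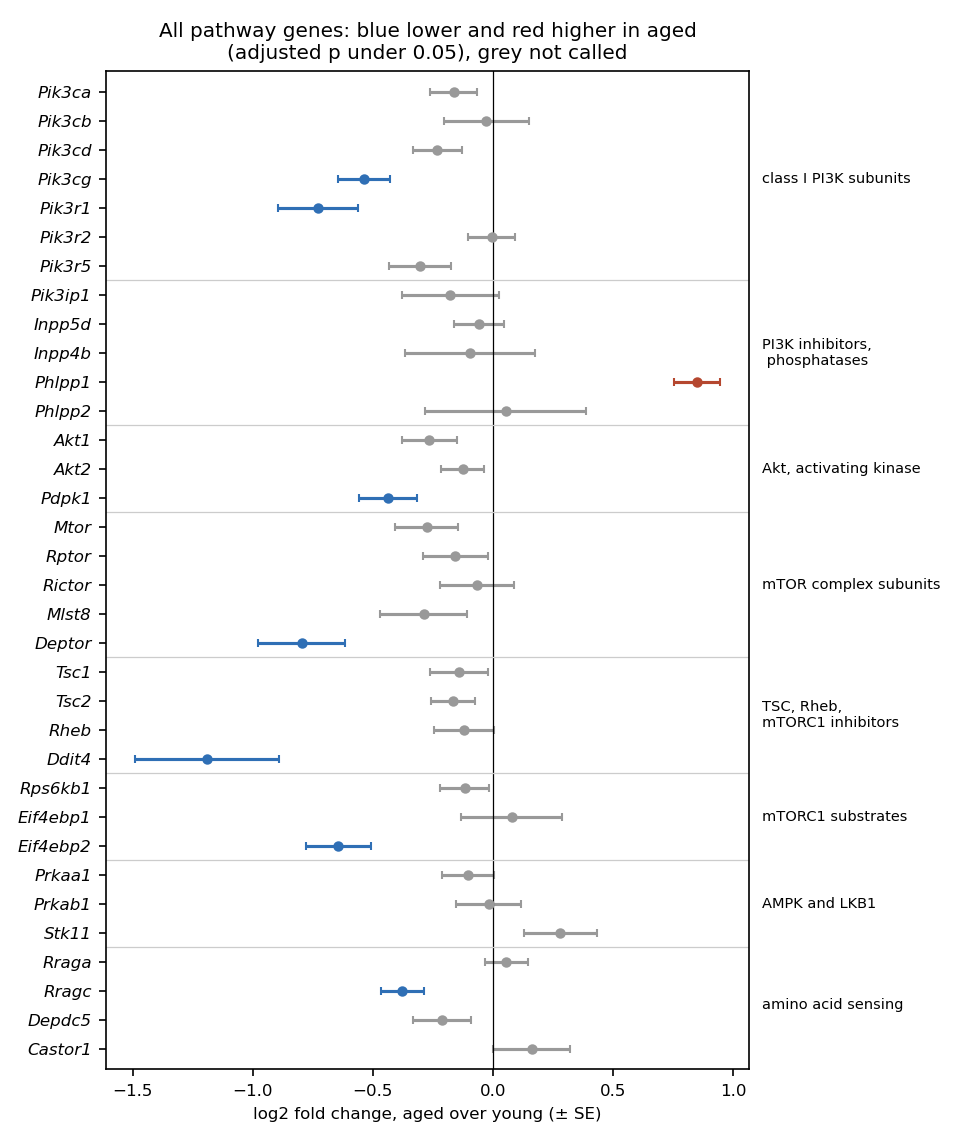
Log2 fold change (aged over young, x axis) with its standard error for each of the 34 genes (y axis), grouped by role. Blue points passed the test as lower, the red point as higher, and grey points did not pass. The values run from -1.19 for Ddit4 to 0.85 for Phlpp1, and 28 of 34 lie left of 0.

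**Figure D2:**
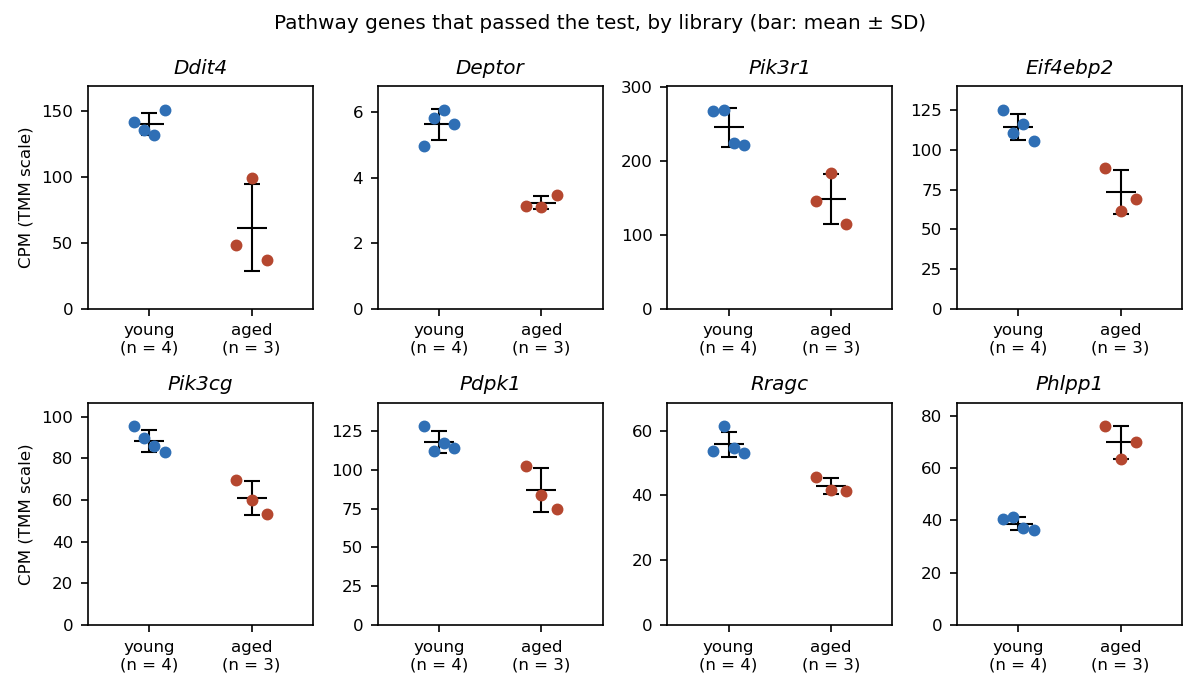
CPM on the TMM scale (y axes, from 0) in each library for the 8 genes that passed the test. Points are libraries in replicate order, 4 young in blue and 3 aged in red, and bars give the mean ± SD. In each panel the aged and young points do not overlap.

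RefSeq promoter windows (GRCm38.p6, from 250 bases before to 50 bases after the annotated start) were at hand for 32 of the 34 genes, in 41 windows, and not for Deptor and Eif4ebp1. Each was searched on both strands for GTAAACA, the core bound by forkhead factors such as FOXO, and for CACGTG, the E-box bound by factors such as TFEB and MYC. GTAAACA was found in 3 of the 41 windows (7.32%), those of Akt1, Pik3cg and Stk11, and in 3.65% of the 32851 windows of all genes. CACGTG was found in 2 windows (4.88%), those of Rheb and Rragc, and in 7.15% of all windows. The windows of 5 called genes, those of Pik3cg and Rragc with a match and those of Ddit4, Phlpp1 and Eif4ebp2 without one, are printed beside their values, each in the direction of transcription, in lower case with a match in capitals. A match is a run of letters and not a measured binding site.

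Class I PI3K is a dimer of a catalytic p110 and a regulatory subunit. Of the 7 subunit genes, 2 fell in aged Tregs and 5 did not pass the test, and all 7 had a log2 fold change below 0. For Pik3cb (-0.027) and Pik3r2 (-0.0046) it was near 0 and reached 0.079 and 0.033 when a library was left out. Pik3r1 encodes p85α and its shorter forms, which stabilise p110 and hold it inactive until a receptor is engaged. It lies on chr13:101680563-101768217 (mm10, minus strand). Pik3r1 was at 146, 183 and 115 CPM in aged replicates 1, 2 and 3 and at 267, 269, 223 and 221 CPM in young replicates 1, 2, 3 and 4. All aged libraries were below all young ones, with aged replicate 2 the closest. Its mean was 148 ± 34 CPM (SD, n = 3) at 18 months and 245 ± 26.3 CPM (SD, n = 4) at 8 weeks, a fall by 0.73 ± 0.17 (SE) on the log2 scale (adjusted p = 0.0216). The call was lost without aged replicate 3 (adjusted p = 0.0611) and without young replicate 1 (0.0592).

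Pik3cg encodes p110γ, the leukocyte catalytic subunit that is coupled to chemokine receptors. It lies on chr12:32173473-32208659 (mm10, minus strand). Pik3cg was at 69.5, 60.1 and 53.4 CPM in the aged libraries and at 95.4, 89.8, 85.8 and 83.1 CPM in the young ones. The highest aged library stayed below the lowest young one. It fell by 0.54 ± 0.11 (SE) on the log2 scale (adjusted p = 0.014), and the call was kept in each of the 7 fits that left out a library (adjusted p at most 0.048). Its promoter window at chr12:32208421-32208720 (minus strand) is shown because it carries a forkhead core, which starts 92 bases before the annotated start. A second window of the gene, from a start further upstream, does not reach this match.
Pik3cg: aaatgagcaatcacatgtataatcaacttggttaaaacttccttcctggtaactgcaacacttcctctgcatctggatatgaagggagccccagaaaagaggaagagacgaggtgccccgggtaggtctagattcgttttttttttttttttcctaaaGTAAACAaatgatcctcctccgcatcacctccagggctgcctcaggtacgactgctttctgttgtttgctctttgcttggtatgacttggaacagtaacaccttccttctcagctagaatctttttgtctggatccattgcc

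The other class I subunits did not pass the test. Pik3cd, which encodes p110δ, the main form of lymphocytes, was at 382 to 432 CPM in aged and 461 to 506 CPM in young libraries. These ranges did not overlap, but the difference of -0.23 ± 0.10 (SE) on the log2 scale did not pass the test (adjusted p = 0.153). Pik3r5, which encodes the p101 partner of p110γ, differed by -0.30 ± 0.13 (adjusted p = 0.14) and among the alternatives run was called only in the fit without aged replicate 1 (adjusted p = 0.0217). Pik3ca, Pik3cb and Pik3r2 differed by -0.16, -0.027 and -0.0046 on the log2 scale, and their ranges overlapped between ages.

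Per kilobase of exon, Pik3cd was the most abundant of the 4 catalytic subunits in each library and held 75.6% to 77.9% of their sum in aged and 75.4% to 76.0% in young Tregs. Pik3cg held 7.89% to 9.04% in aged and 9.87% to 10.7% in young libraries, a share that did not overlap between ages. The level of Pik3r1 per kilobase was 15.4% to 23.7% of the sum of Pik3ca, Pik3cb and Pik3cd in aged and 24.4% to 30.1% in young Tregs. Among the regulatory genes Pik3r1, Pik3r2 and Pik3r5, the share of Pik3r1 was 38.2% to 46.9% in aged and 47.8% to 53.3% in young libraries. Pik3r2 held 19.8% to 24.3% of that sum in aged and 14.2% to 17.7% in young libraries. Its own level differed by only -0.0046 on the log2 scale, so that its larger share reflects the smaller sum. The share of Pik3r5 overlapped between ages (33.3% to 41.4% and 32.5% to 35.4%). Hence Pik3r1 took a smaller share of the regulatory transcripts in every aged library, although aged replicate 2 was near the lowest young library. No test was made of these shares, which rest on the length of all annotated exons.

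**Figure D3:**
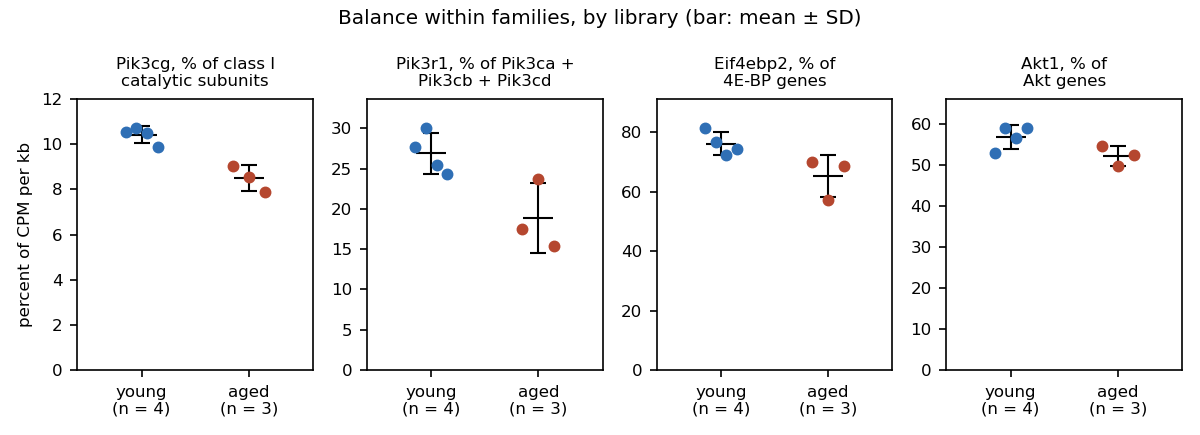
Level of one transcript as a percent of a sum (y axes, from CPM per kilobase of exon, from 0) by library. There are 4 young points in blue, 3 aged points in red, and mean ± SD as bars. For Pik3cg, Eif4ebp2 and Akt1 the sum is that of the family. For Pik3r1 it is that of Pik3ca, Pik3cb and Pik3cd, without Pik3r1 itself. The percents of Pik3cg, Pik3r1 and Eif4ebp2 were smaller in all 3 aged libraries than in any of the young ones. However, the Eif4ebp2 share overlapped between ages once Eif4ebp3 was left out of its family (63.5% to 78.5% in aged and 76.0% to 84.3% in young). The Akt1 share overlapped between ages (49.8% to 54.6% in aged and 52.8% to 59.0% in young).

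Of the 5 genes that act against PI3K or Akt, 1 rose and 4 did not pass the test. Phlpp1 encodes a phosphatase that removes the activating phosphate from the hydrophobic motif of Akt and also acts on other kinases. It lies on chr1:106171752-106394250 (mm10, plus strand). Phlpp1 was at 75.9, 63.4 and 69.9 CPM in the aged libraries and at 40.5, 41.1, 37.1 and 36.2 CPM in the young ones. Every aged library was far above every young one, and the young libraries lay close together. The level was 1.80-fold higher in aged Tregs, with a log2 fold change of 0.85 ± 0.10 (SE, adjusted p = 0.0014). It was called in each fit that left out a library (adjusted p at most 0.008), and it was the only gene of the set with that adjusted p below 0.01 in all 7. Its promoter window at chr1:106171619-106171918 (plus strand) is shown as that of the single gene that rose, and it holds neither run of letters.
Phlpp1: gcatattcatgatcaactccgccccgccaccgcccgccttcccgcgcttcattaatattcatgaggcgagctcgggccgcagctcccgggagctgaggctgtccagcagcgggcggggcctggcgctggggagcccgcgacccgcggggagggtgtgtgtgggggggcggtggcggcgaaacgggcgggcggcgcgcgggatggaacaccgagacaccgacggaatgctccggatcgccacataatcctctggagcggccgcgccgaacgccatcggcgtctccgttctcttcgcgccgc

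The paralogue Phlpp2 did not move with Phlpp1. Phlpp2 was at 22.3, 40.1 and 36.8 CPM in aged and at 43.5, 15.6, 30.5 and 37.8 CPM in young libraries, so that its ranges overlapped widely (log2 fold change 0.054 ± 0.33, adjusted p = 0.932). Pik3ip1, a surface inhibitor of p110 in T cells, differed by -0.18 ± 0.20 (adjusted p = 0.587), with 74.2 to 90.1 CPM in aged and 70.3 to 129 CPM in young libraries. Inpp5d, which encodes the lipid phosphatase SHIP1, was at 218 to 232 CPM in aged and 212 to 261 CPM in young Tregs. Inpp4b, which removes the 4-phosphate of a PI3K product, ranged from 181 to 388 CPM within the aged group alone and from 206 to 346 CPM in the young one. No difference in these genes was detectable at this spread.

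Of Akt1, Akt2 and Pdpk1, only Pdpk1 passed the test. Pdpk1 encodes Pdk1, which phosphorylates the activation loop of Akt and of related kinases, and lies on chr17:24073680-24150924 (mm10, minus strand). Pdpk1 was at 103, 83.6 and 74.8 CPM in the aged libraries and at 128, 112, 117 and 114 CPM in the young ones. The ages did not overlap, with aged replicate 1 nearest to the young libraries. It fell by 0.44 ± 0.12 (SE) on the log2 scale (adjusted p = 0.0423). This call was kept only without aged replicate 1 (adjusted p = 0.0085) and lost without each of the other 6 libraries (0.0584 to 0.135) and with library size as the only scaling (0.0564). Akt1 differed by -0.26 ± 0.11 (adjusted p = 0.146), with 114 to 141 CPM in aged and 138 to 167 CPM in young libraries. Akt2 differed by -0.13 ± 0.09 (adjusted p = 0.372).

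Of the 5 mTOR complex subunits, 1 fell and the others were below 0 without passing the test. Deptor encodes a subunit that binds mTOR in both complexes and inhibits it. It lies on chr15:55112317-55259271 (mm10, plus strand), and 3.41% of its exon length is shared with Gm9920. Deptor had the lowest level of the set, also per kilobase of exon, at 3.14, 3.12 and 3.46 CPM in the aged libraries and at 4.98, 5.82, 6.08 and 5.66 CPM in the young ones. These values rest on 31 to 37 counts per aged library and 57 to 83 per young library, above the detection floor of 3 counts in each. It fell by 0.80 ± 0.18 (SE) on the log2 scale, 1.74-fold (adjusted p = 0.0213). The call was lost without aged replicate 2 (adjusted p = 0.053), young replicate 3 (0.0602) or young replicate 4 (0.0588).

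The catalytic subunit Mtor was at 63.3, 49.2 and 44.0 CPM in aged and at 66.9, 58.7, 66.4 and 60.6 CPM in young libraries. Aged replicate 1 lay within the young range, and the difference of -0.27 ± 0.13 (SE) on the log2 scale did not pass the test (adjusted p = 0.186), although it did without aged replicate 1 (adjusted p = 0.0217). Rptor, the substrate-binding subunit of mTORC1, and Rictor, which defines mTORC2, differed by -0.16 ± 0.14 and -0.066 ± 0.15. The value of Rictor ran from -0.25 to 0.083 when a library was left out. Mlst8, a subunit of both complexes, differed by -0.29 ± 0.18 (adjusted p = 0.309). Reads of Mlst8 are less certain, since 22.5% of its exon length overlaps Bricd5 and the library kit does not mark strand.

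Of the 4 genes that set the activity of mTORC1 through TSC and Rheb, Ddit4 fell and Tsc1, Tsc2 and Rheb did not pass the test. Ddit4, also called REDD1, is induced by stress and glucocorticoids and inhibits mTORC1 through the TSC complex. It lies on chr10:59949669-59951834 (mm10, minus strand). Ddit4 was at 48.0, 99.1 and 37.0 CPM in the aged libraries and at 142, 136, 131 and 151 CPM in the young ones. The young libraries were close together, while aged replicate 2 was well above the other aged libraries and still below every young one. Its mean was 61.3 ± 33.2 CPM (SD, n = 3) at 18 months and 139.8 ± 8.42 CPM (SD, n = 4) at 8 weeks. It fell by 1.19 ± 0.30 (SE) on the log2 scale, 2.28-fold (adjusted p = 0.0301), the largest change of the set in the fit with all 7 libraries. The call was kept without aged replicate 2 (adjusted p = 0.00156) or young replicate 2 (0.0461) and lost without aged replicate 1 (0.0658), aged replicate 3 (0.077), young replicate 1 (0.0702), young replicate 3 (0.0649) or young replicate 4 (0.0739).

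Of 7 tested immediate early genes, which respond to handling of cells, Fos and Jun were called lower and 5 were not called. All 7 had a log2 fold change below 0 (median -0.80), 4 had an unadjusted p under 0.05, and DESeq2 called 4, with Ier2 and Dusp1 added. Of all 13904 genes tested in edgeR, 16.7% were called (6.94% lower), 4540 had an unadjusted p under 0.05 and 48.0% were below 0. Fos overlapped between ages (adjusted p = 0.0496), was not called by limma voom and was kept in 2 of the 7 fits that left out a library, and Jun in 3 (adjusted p = 0.0199 with all libraries). The list summed to 986 to 1893 CPM in aged and 1215 to 3667 CPM in young libraries, which overlapped. In young replicate 3 Fos was at 239.8 CPM, against 637 to 1054 CPM in the other young libraries, and Ddit4 there was at 131 CPM, against 136 to 151 CPM. The part of handling in the values of Ddit4 was not tested. The promoter window of Ddit4 at chr10:59951721-59952020 (minus strand) is shown because Ddit4 is the gene of the set that fell most. The window holds neither run of letters.
Ddit4: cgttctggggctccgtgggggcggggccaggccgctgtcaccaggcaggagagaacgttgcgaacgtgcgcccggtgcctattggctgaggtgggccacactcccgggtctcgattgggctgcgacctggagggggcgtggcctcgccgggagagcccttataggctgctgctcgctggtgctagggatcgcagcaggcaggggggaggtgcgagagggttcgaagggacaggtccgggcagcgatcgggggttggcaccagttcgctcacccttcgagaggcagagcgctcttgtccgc

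Tsc1 and Tsc2 encode the complex that keeps Rheb inactive. They differed by -0.14 ± 0.12 and -0.17 ± 0.09 (SE) on the log2 scale (adjusted p = 0.469 and 0.245). Rheb was at 30.5 to 42.9 CPM in aged and 37.6 to 39.3 CPM in young libraries, so that the aged range enclosed the young one.

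Among the 3 substrates of mTORC1, Eif4ebp2 fell. Eif4ebp1 and Eif4ebp2 encode 4E-BP1 and 4E-BP2, which block cap-dependent translation until mTORC1 phosphorylates them. Eif4ebp2 lies on chr10:61428491-61452661 (mm10, minus strand), and was at 88.9, 61.7 and 69.3 CPM in the aged libraries and at 125, 111, 116 and 106 CPM in the young ones. The ages did not overlap. It fell by 0.64 ± 0.13 (SE) on the log2 scale, 1.56-fold (adjusted p = 0.0158), and the call was lost without aged replicate 3 (adjusted p = 0.0622) and kept without each other library. Eif4ebp1 was at 9.26 to 13.5 CPM in aged and 8.83 to 13.9 CPM in young libraries (log2 fold change 0.078 ± 0.21). Per kilobase of exon, Eif4ebp2 was the most abundant 4E-BP transcript in all 7 libraries, with 57.0% to 70.1% of the sum of Eif4ebp1, Eif4ebp2 and Eif4ebp3 in aged and 72.3% to 81.4% in young Tregs. Eif4ebp3 held 2.88% to 10.7% of that sum in aged and 3.53% to 7.14% in young libraries. Its reads are less certain, since 67.3% of its exon length overlaps AC115631.1. With Eif4ebp3 left out, a choice made after seeing the data, the share of Eif4ebp2 was 63.5% to 78.5% in aged and 76.0% to 84.3% in young libraries, and the ages overlapped. Rps6kb1, which encodes the S6 kinase, differed by -0.12 ± 0.10 (adjusted p = 0.468). The promoter window of Eif4ebp2 at chr10:61452620-61452919 (minus strand) is shown as that of the substrate that fell, and it holds neither run of letters.
Eif4ebp2: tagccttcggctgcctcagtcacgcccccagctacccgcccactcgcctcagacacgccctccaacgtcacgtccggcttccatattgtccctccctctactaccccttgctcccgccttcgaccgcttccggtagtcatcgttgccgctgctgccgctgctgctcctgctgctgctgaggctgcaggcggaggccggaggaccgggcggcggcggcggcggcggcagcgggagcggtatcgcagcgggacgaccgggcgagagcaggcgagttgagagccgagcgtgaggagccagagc

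The 3 energy-sensing genes did not pass the test in edgeR, DESeq2 or limma voom, with 0 at an unadjusted p under 0.05 in edgeR. Prkaa1 and Prkab1, a catalytic and a scaffold subunit of AMPK, differed by -0.10 ± 0.11 and -0.018 ± 0.13 (SE) on the log2 scale. Stk11, which encodes LKB1, the kinase that activates AMPK, was at up to 147 CPM in aged and 83.5 to 109 CPM in young libraries, with overlap (log2 fold change 0.28 ± 0.15, adjusted p = 0.24).

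Of the 4 amino acid sensing genes, 1 fell. Rragc encodes a Rag GTPase, which pairs with RagA or RagB and brings mTORC1 to the lysosome. It lies on chr4:123917446-123936997 (mm10, plus strand), with 7.9% of its exon length shared with 4930535I16Rik. Rragc was at 45.7, 41.6 and 41.5 CPM in the aged libraries and at 53.8, 61.3, 54.7 and 53.0 CPM in the young ones. The ages did not overlap, and the fall of 0.38 ± 0.09 (SE) on the log2 scale was the smallest of the 8 calls (adjusted p = 0.0262). It was kept only without aged replicate 1 and lost without each of the other 6 libraries (adjusted p = 0.0512 to 0.0827) and with library size as the only scaling (0.0553). Its partner Rraga was at 36.1 to 40.3 CPM in aged and 35.0 to 38.4 CPM in young libraries. Whether reads of Rraga are lost or split with its relative Rragb was not tested. Depdc5, a subunit of the GATOR1 complex that inactivates the Rag pair, differed by -0.21 ± 0.12 (adjusted p = 0.264), and Castor1, the arginine sensor, by 0.16 ± 0.16 (adjusted p = 0.531). The promoter window of Rragc at chr4:123917183-123917482 (plus strand) is shown because it holds an E-box, which starts 112 bases before the annotated start.
Rragc: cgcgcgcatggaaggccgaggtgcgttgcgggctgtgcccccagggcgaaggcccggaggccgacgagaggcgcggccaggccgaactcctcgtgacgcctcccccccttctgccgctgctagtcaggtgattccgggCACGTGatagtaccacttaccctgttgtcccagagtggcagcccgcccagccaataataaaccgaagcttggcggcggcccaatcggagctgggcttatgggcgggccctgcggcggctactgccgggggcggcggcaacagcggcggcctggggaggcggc

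**Figure D4:**
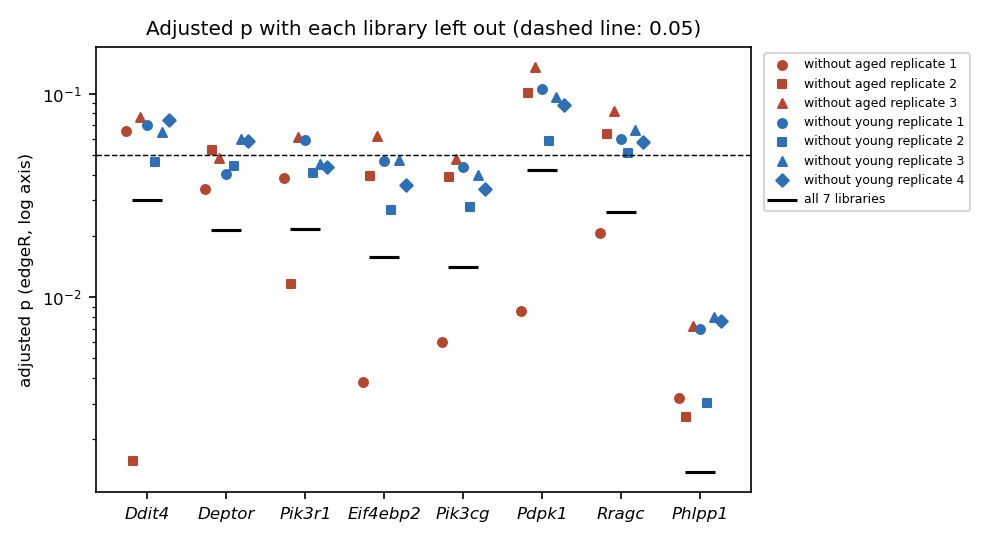
Adjusted p of edgeR (y axis, log scale) for the 8 called genes (x axis) with all 7 libraries (black bar) and with each library left out (symbols, red for an aged and blue for a young library left out). Phlpp1 and Pik3cg stay under the dashed line at 0.05 in all 7 fits, while Pdpk1 and Rragc stay under it only without aged replicate 1.

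Aged replicate 1 was the library with the most neutrophil and mitochondrial transcripts. Without it, 9 genes of the set and 21.5% of all genes tested were called, against 8 and 16.7% with all libraries. Pik3cg, Pik3r1, Eif4ebp2, Pdpk1, Rragc, Deptor and Phlpp1 remained, Mtor and Pik3r5 were added as lower, and Ddit4 was lost with a log2 fold change of -1.04. With mitochondrial, immunoglobulin and haemoglobin genes left out of the counts, the same 8 genes were called.

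A further list held 91 other genes of the pathway, including 4 targets of FOXO factors, of which 87 were tested and Foxo6, Ddit4l, Prkaa2 and Prkag3 did not pass the filter on low counts. In aged Tregs 13 of the 87 fell and 3 rose (18.4% called, with 14.9% lower and 3.45% higher). Of all genes tested 16.7% were called, with 6.94% lower and 9.8% higher. The total share is near that of all genes, while the share lower is above it and the share higher below it. With the FOXO targets left out, a choice made after seeing the data, 10 of 83 fell (12%) and 3 rose. With GC content and length trends removed, 14 of 87 fell (16.1%), or 11 of 83 (13.3%) without the FOXO targets, against 10.7% of all genes tested. Their median log2 fold change was -0.0089. Sgk1, a PI3K-dependent kinase of T cells that phosphorylates FOXO factors, was at 15.3, 9.57 and 9.92 CPM in aged and at 34, 34.8, 31.2 and 33.6 CPM in young libraries. It fell by 1.52 ± 0.18 (SE) on the log2 scale (adjusted p = 0.00158) and was called in each fit that left out a library. Its relative Sgk3 fell by 0.45 ± 0.12 (adjusted p = 0.0389), a call that of the fits without a library was kept only without aged replicate 1 or young replicate 2 (0.0733 to 0.121 without each other library), and that was lost with library size as the only scaling (0.0537), with GC content and length trends removed (0.0557) and after thinning to the smallest total (0.0542). Prr5l, a Rictor-binding component of mTORC2, fell by 1.38 ± 0.27 from a low level, with 1.40 to 2.62 CPM in aged and 4.70 to 6.63 CPM in young libraries.

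The transcription factor Foxo1, the main FOXO of T cells, was at 191, 167 and 179 CPM in aged and at 275, 229, 255 and 287 CPM in young libraries. All aged libraries were below the young ones, and Foxo1 fell by 0.55 ± 0.11 (SE) on the log2 scale (adjusted p = 0.014, and 0.0543 without aged replicate 3). Of 4 listed genes that depend on FOXO1 in T cells, 3 fell, where 6.94% of all genes tested fell. Klf2, a factor that drives S1pr1, fell by 1.15 ± 0.22 (adjusted p = 0.0123, and 0.0516 without aged replicate 3). S1pr1, the receptor for egress from lymphoid organs, and Ccr7, the chemokine receptor for entry into lymph nodes, fell by 0.81 ± 0.13 and 0.77 ± 0.17. Ccr7 was not called without aged replicate 2, aged replicate 3 or young replicate 1 (adjusted p = 0.0516 to 0.0793). The other gene, Il7r, did not pass the test (log2 fold change 0.25 ± 0.25, adjusted p = 0.532). The list was set with earlier results of these data known, so that its count is a description.

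Downstream of mTORC1, Tfeb, which drives lysosomal genes, was at 23.1, 23.3 and 23.5 CPM in aged and at 38.8, 40.7, 32.8 and 45.7 CPM in young libraries, and fell by 0.76 ± 0.13 (SE) on the log2 scale (adjusted p = 0.00642). Pdcd4, an inhibitor of the translation factor eIF4A, fell by 0.65 ± 0.17 (adjusted p = 0.0318), a call lost without aged replicate 2, aged replicate 3 or young replicate 1 (0.0644 to 0.105). The stress-induced inhibitor Sesn1 fell by 0.71 ± 0.16 (adjusted p = 0.0189), with 86.0 to 127 CPM in aged and 152 to 194 CPM in young libraries. It was lost without aged replicate 3 (adjusted p = 0.0713) or young replicate 1 (0.0517). Pik3ap1, an adaptor that recruits PI3K and is abundant in B cells, fell by 0.94 ± 0.22 (adjusted p = 0.0235). It was lost without young replicate 1, 3 or 4 (adjusted p = 0.0595 to 0.0651). The 7 B cell markers overlapped between ages as a sum, and Ms4a1 among them was at 137 to 219.5 CPM in aged and 227 to 337 CPM in young libraries.

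In amino acid sensing the calls went both ways. Wdr59, a subunit of GATOR2, which opposes GATOR1, fell by 0.79 ± 0.12 (SE) on the log2 scale (adjusted p = 0.00405). Nprl3, a subunit of GATOR1, rose by 0.56 ± 0.16 (adjusted p = 0.0448), and Lamtor4, a subunit of the lysosomal Ragulator scaffold, rose by 0.61 ± 0.17 (adjusted p = 0.0392), although its ranges overlapped (41.9 to 60.5 CPM in aged and 28.1 to 41.9 CPM in young libraries). In energy sensing, Camkk2, a kinase that can activate AMPK, fell by 0.64 ± 0.15 (adjusted p = 0.0258, and 0.0626 to 0.0957 without aged replicate 3 or young replicate 1, 3 or 4), and Prkag1, the main nucleotide-binding subunit of AMPK, rose by 0.38 ± 0.11 (adjusted p = 0.0448). With a library left out, Nprl3 and Prkag1 were called only without aged replicate 1 (adjusted p up to 0.134 and 0.141 otherwise), and Lamtor4 only without aged replicate 1 or young replicate 2 (up to 0.133 otherwise). Prkag1 was also lost in DESeq2 (adjusted p = 0.0728), with library size as the only scaling (0.155), with no filter (0.121), after thinning (0.0705) and with GC content and length trends removed (0.144), where its log2 fold change was 0.23. Nprl3 was lost with library size as the only scaling (0.0538) and after thinning (0.0589), and Lamtor4 with library size as the only scaling (0.0855) and with GC content and length trends removed (0.0666). Reads of Prkag1 and Nprl3 are less certain, since 43.7% and 17.7% of their exon length overlap B130046B21Rik and Mpg. In contrast, Sgk1, Prr5l, S1pr1, Tfeb and Wdr59 were called in all 7 fits that left out a library.

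**Figure D5:**
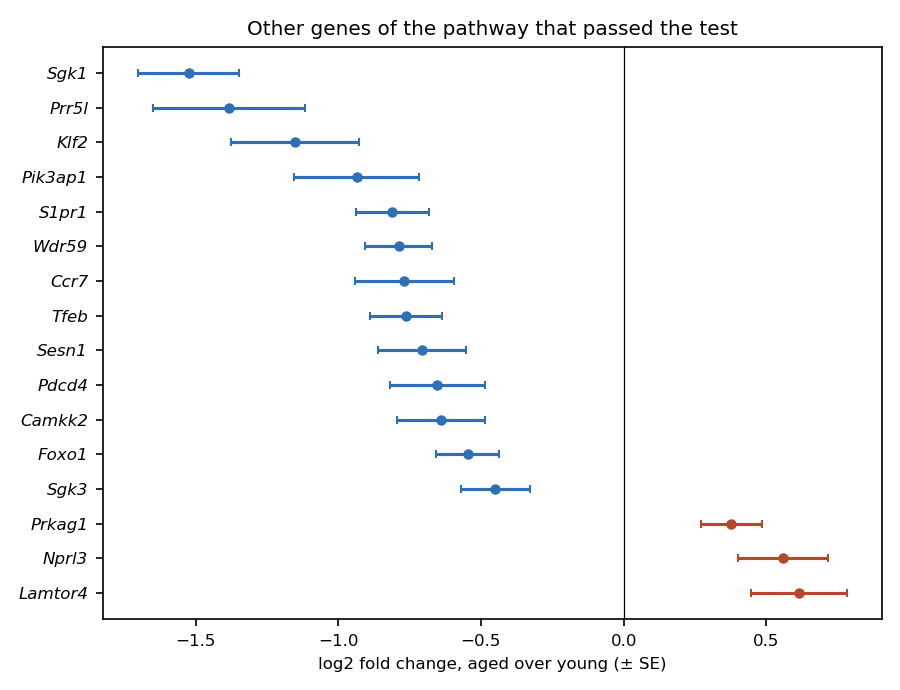
Log2 fold change (aged over young, x axis) with its standard error for the 16 other pathway genes (y axis) that passed the test, 13 lower in blue and 3 higher in red. The values run from -1.52 for Sgk1 to 0.61 for Lamtor4.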

How the data were processed

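RNA of CD4+CD25+ splenocytes from 3 aged and 4 young mice was made into cDNA with a SMART-Seq kit, which does not mark strand and adds no molecular identifiers. The authors deposited raw read counts per Ensembl gene for each library, and a table whose signal values, as checked here, are the counts over a constant for the library. That table also holds the authors' log2 fold change, its standard error and the authors' p-value, which were not used. The labels name the build mm10, and the aligner and annotation release are not given in the sources used here. Reads outside genes or shared by several (13.1% to 20.9%) were left out. Ensembl identifiers were used to look up coordinates and exon lengths in GENCODE M21 (GRCm38).

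The ages were tested against each other by quasi-likelihood in edgeR 4.0.16 (R 4.3.3), with TMM scaling, low genes removed by filterByExpr and age as the sole term. Benjamini-Hochberg adjustment covered all 13904 genes tested, with a threshold of 0.05. To obtain a standard error, the log2 fold change was divided by the square root of F. CPM is on the TMM scale. A count of 3, taken as the floor, is 0.21 to 0.302 CPM on that scale, and covers counting error only. No pair of libraries of an age agreed within sampling noise.

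Each library's value was printed for members that were called, for members not called whose ages did not overlap and that differed by 0.5 or more on the log2 scale, and for members whose call changed in DESeq2 or limma voom; values of Mtor, Phlpp2, Sgk1, Foxo1 and Tfeb were added after they were seen. Other pathway genes were named where called. Members and lists were chosen with earlier results of these data known. The alternatives were DESeq2 1.42.0, limma voom (3.58.1), RLE or library size scaling, other filters, classes of genes left out, each library left out, the replicate number as a block, GC content and length trends removed, thinning to the smallest total, and a minimum change of 0.5 on the log2 scale. Some genes of the pathway are not reported here.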

Additional observations from a re-analysis of the deposited data

How the results depend on the processing

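The calls rest on 3 aged and 4 young libraries, and leaving out one moved the count of all genes called from 2327 to between 1237 and 3058, of the 34 genes from 8 to between 3 and 9, and of the 87 other pathway genes from 16 to between 6 and 21. The other settings without a replicate block kept these counts within 1.5 times. Removal of GC content and length trends called 1215 genes higher and 1482 lower, where 1362 were higher and 965 lower without it, and called the same 8 genes of the set. With library size as the only scaling, Pdpk1 and Rragc were lost. Replicate numbers are shared between the ages, but libraries of the same number did not deviate together (correlations -0.0915, -0.292 and -0.138). With the replicate number as a block, which leaves 6 libraries, 279 genes, 1 gene of the set (Phlpp1) and 2 other pathway genes were called. With the block and the GC content and length trends removed, edgeR called 305 genes, 0 genes of the set (8 at an unadjusted p under 0.05) and 1 other pathway gene. An unadjusted p under 0.05 is common in these data. In the main edgeR fit 10 of the 34 genes of the set and 4540 of all 13904 genes tested had one. The cause of the differences between these fits was not tested.

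No called gene changed sign. Genes of the set that were not called and near 0 did. Without one library the log2 fold change ran from -0.25 to 0.079 for Pik3cb, -0.032 to 0.033 for Pik3r2, -0.28 to 0.043 for Pik3ip1, -0.47 to 0.12 for Inpp4b, -0.17 to 0.27 for Phlpp2, -0.25 to 0.083 for Rictor, -0.074 to 0.23 for Eif4ebp1 and -0.18 to 0.087 for Prkab1. With the block it was 0.021 for Pik3cb, 0.0085 for Pik3r2 and 0.0025 for Prkab1. With GC content and length trends removed it was -0.074 for Eif4ebp1, -0.11 for Rraga and -0.010 for Castor1, and with the block added 0.022 for Pik3cb, 0.0017 for Inpp5d, -0.043 for Eif4ebp1, -0.094 for Rraga and -0.079 for Castor1. With library size only it was -0.020 for Phlpp2, -0.010 for Eif4ebp1 and -0.016 for Rraga, and with at least 10 counts in every library 0.0093 for Pik3r2. Deptor was called from 31 to 83 counts per library.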

Other observations

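Some genes of the pathway varied within each age far more than between ages. Phlpp2 was lowest in aged replicate 1 (22.3 CPM) and young replicate 2 (15.6 CPM), the libraries in which haemoglobin took the smallest share of counts (1.27% and 1.24%), and was at 30.5 to 43.5 CPM in the other 5 libraries (5.91% to 13.1% haemoglobin). The following genes were chosen after their values were seen. Stradb, which encodes a pseudokinase partner of LKB1, was at 24.0 and 23.9 CPM in those libraries and at 48.3 to 107 CPM in the others. Ulk1, a starter of autophagy that mTORC1 and AMPK phosphorylate, was at 51.0 and 34.9 CPM and at 71.8 to 119 CPM in the others. Foxo3 was at 90.6 and 92.5 CPM there and at 120.2 to 237 CPM in the others. None of these genes was called between ages (edgeR adjusted p = 0.932 for Phlpp2, 0.993 for Stradb, 0.782 for Ulk1 and 0.554 for Foxo3), and the part of erythroid cells in them was not tested.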
